A study of Mus musculus with 58 samples.

Results

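Matrix metalloproteinases (MMPs) and tissue inhibitors of metalloproteinases (TIMPs) were followed in the brains of 58 mice with or without a traumatic brain injury (TBI). The genes were taken by symbol from the table of read counts, and 10 of its 15171 genes belonged to the set: Mmp2, Mmp3, Mmp12, Mmp14, Mmp15, Mmp19, Timp1, Timp2, Timp3 and Timp4. All mice were C57BL/6, were operated on at 3 months of age, and carried human APOE3 (E3) or APOE4 (E4) by targeted replacement of mouse Apoe, together with 2 copies (Abca1+/+) or 1 copy (Abca1+/-) of Abca1, the transporter that loads lipid onto APOE. Neither change was limited to a cell type. Injured mice received a controlled cortical impact over the left parietal cortex, sham mice had the craniotomy alone, and hippocampus and cortex of a coronal slice at the injury site were pooled for RNA sequencing at 14 days. The groups held 8 sham and 8 TBI mice of E3/Abca1+/+, 7 and 6 of E3/Abca1+/-, 7 and 7 of E4/Abca1+/+, and 7 and 8 of E4/Abca1+/-, with 3 or 4 mice of each sex in every group.

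MMPs are zinc-dependent enzymes that cut collagens, laminins, proteoglycans and other proteins outside the cell, and they are made as inactive precursors. TIMPs bind the catalytic site of active MMPs and block it. In the brain both families are known for the opening of the vascular basement membrane after injury and for the later remodelling of matrix, scar and synapses.

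The catalytic zinc of an MMP is held by histidines in a short motif, and its codons are shown because they are what the 6 proteases have in common. Each sequence is 33 bases of the principal GENCODE M21 transcript on GRCm38, written 5′ to 3′ on the coding strand, with the codons of the zinc-binding histidines in capitals. The site lies in coding sequence, in exon 8 of Mmp2 (chr8:92839279-92839311) and in exon 5 of Mmp3 (chr9:7449775-7449807), Mmp12 (chr9:7352914-7352946), Mmp14 (chr14:54437627-54437659), Mmp15 (chr8:95368585-95368617) and Mmp19 (chr10:128795673-128795705), all on the plus strand.
Mmp2: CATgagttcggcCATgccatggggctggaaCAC
Mmp3: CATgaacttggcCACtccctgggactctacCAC
Mmp12: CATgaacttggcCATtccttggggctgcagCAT
Mmp14: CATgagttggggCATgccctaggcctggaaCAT
Mmp15: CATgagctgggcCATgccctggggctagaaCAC
Mmp19: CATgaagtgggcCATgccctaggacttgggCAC
Over these bases Mmp2 and Mmp15 were the most alike of the 6, with 29 identical bases (87.9%), and Mmp3 and Mmp14 the least alike, with 21 (63.6%).

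The TIMPs reach that zinc with the first residues of the mature protein, and the 27 bases that encode them are shown with the cysteine codons in capitals. They lie in coding sequence of exon 2 of Timp1 (chrX:20871111-20871137, plus strand) and of exon 1 of Timp2 (chr11:118354986-118355012, minus strand), Timp3 (chr10:86300923-86300949, plus strand) and Timp4 (chr6:115251665-115251691, minus strand).
Timp1: TGTagcTGTgccccaccccacccacag
Timp2: TGCagcTGCtccccggtgcacccgcaa
Timp3: TGCacaTGCtctcccagccatccccag
Timp4: TGCagcTGTgcgcctgcgcacccccag
Timp1 and Timp4 shared 21 of the 27 bases (77.8%), the most of any pair of TIMPs, and Timp1 and Timp3 shared 16 (59.3%), the fewest.

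Total counts per library ranged from 4421308 to 37877346. The median was 18871445.5 in the 28 Abca1+/- libraries and 8350020.5 in the 30 Abca1+/+ libraries, and the total of 21 Abca1+/- libraries exceeded that of every Abca1+/+ library, so that depth and Abca1 genotype cannot be told apart. Levels are CPM, counts scaled to a common library total with TMM factors. A floor of 3 counts ranged over the libraries from 0.0792 to 0.679 CPM. Abca1, which checks the genotype labels, averaged 48.5 ± 6.92 CPM (SD, n = 8) with both copies and 35.3 ± 3.84 CPM (SD, n = 7) with 1 copy among E3 sham animals, and 45.6 ± 6.42 and 35.8 ± 4.86 CPM (SD, n = 7 each) among E4 sham animals. After TBI it averaged 170 ± 54.7 (SD, n = 8) and 104 ± 21.1 CPM (SD, n = 6) in E3, and 156 ± 74.6 (SD, n = 7) and 138 ± 44.5 CPM (SD, n = 8) in E4 animals, where the genotypes differed by less than 1 SD. E4/Abca1+/- sham replicate 2 held the highest Mmp3, Mmp12 and Timp1 levels of all 29 sham mice, and the injury effects on these 3 genes are given with and without it. In bulk tissue, fewer cells of a type and less RNA per cell cannot be told apart.

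In the uninjured brain most transcript of the set belonged to inhibitors, and Timp2 led it. Levels of different genes were compared as CPM per kb of the principal transcript, whose length ran from 883 bases for Timp1 to 5496 bases for Timp4. Over the sham mice the mean level of Timp2 was 134 ± 12.1 CPM per kb (SD, n = 29), which made up 74.6% of the sum over the 10 genes. Timp3 followed with 30.4 ± 3.58 CPM per kb (SD, n = 29). These were above every lower gene in all 29 sham mice, with no overlap of ranges.

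Timp4, Mmp14 and Mmp15 came next in sham mice, with mean levels of 4.65 ± 0.575, 4.64 ± 0.840 and 3.70 ± 0.414 CPM per kb (SD, n = 29). Timp4 exceeded Mmp14 in 11 of the 29 mice and Mmp14 exceeded Mmp15 in 25, so these neighbours were not separated by the spread between mice. Mmp2, Timp1 and Mmp19 had mean levels of 0.937, 0.586 and 0.220 CPM per kb. Mmp12 and Mmp3 were the lowest, at 0.0376 and 0.0111 CPM per kb.

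After injury Timp2 and Timp3 kept their places in all 29 mice, with mean levels of 172 ± 15.2 and 37.7 ± 6.94 CPM per kb (SD, n = 29). By mean level Timp1 stood next after these, above Mmp14, with 8.67 ± 6.26 CPM per kb (SD, n = 29), but it exceeded Mmp14, at 7.33 ± 1.72, in 14 of the 29 mice. Mmp3 reached 1.4 ± 1.86 CPM per kb and Mmp19 0.797 ± 0.352 (SD, n = 29), and Mmp3 was the higher of them in 13 of 29 mice. Mmp12 was the lowest member in injured tissue, at 0.656 ± 0.649 CPM per kb (SD, n = 29).

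The summed level of the 6 MMPs had a lowest, median and highest value of 7.60, 9.45 and 12.3 CPM per kb in sham and 8.80, 14.7 and 25.9 in TBI mice. For the 4 TIMPs these sums were 149, 168 and 197 CPM per kb in sham and 178, 224 and 262 in TBI mice. The ratio of the TIMP sum to the MMP sum was 13.6, 17.6 and 21.4 in sham and 9.13, 15 and 21.2 in TBI mice, with overlapping ranges. The TIMP sum was above the sum of these 6 MMPs in every mouse. Other MMPs are left out of this sum and ratio. Among them Mmp17, Mmp24 and Mmp16 averaged 254, 49.5 and 30.4 CPM in sham and 208, 45.8 and 28.4 CPM in TBI mice. Of these Mmp17 and Mmp24 were called lower after TBI. The 4 other MMPs called higher averaged at most 2.48 CPM in TBI mice. The ratio and its change therefore hold for the 6 MMPs of the set alone.

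**Figure D1:**
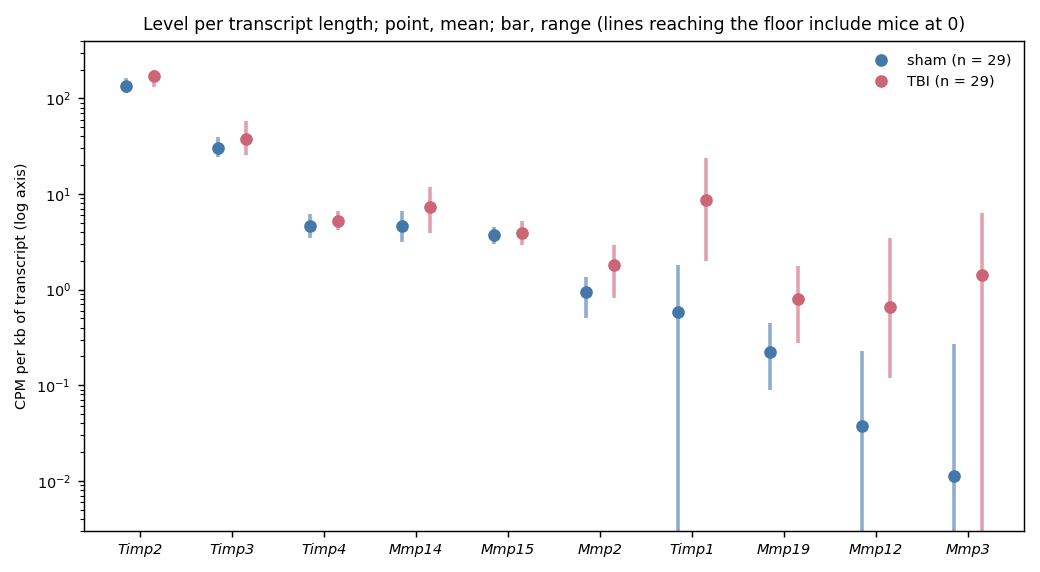
Level of each gene per transcript length in 29 sham and 29 TBI mice, in CPM per kb on a log axis (point, mean; bar, lowest to highest mouse, with bars that reach the bottom of the axis including mice at 0). Timp2 and Timp3 lead in both, at 134 and 30.4 CPM per kb in sham mice, and the means of Timp1, Mmp3 and Mmp12 lie furthest apart between sham and TBI.

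To ask which of the 10 genes responded to injury, TBI was compared with sham within each genotype with edgeR's quasi-likelihood test, and a gene was called at a Benjamini-Hochberg adjusted p under 0.05 over all genes tested. In E3/Abca1+/+ mice 5 of the 8 members tested were higher after TBI, beside 12.3% of 14093 genes higher and 10.9% lower. In E3/Abca1+/- mice 7 of 9 were higher (13.4% of 15026 genes higher, 10% lower), in E4/Abca1+/+ mice 7 of 8 (8.82% of 14041 higher, 4.87% lower) and in E4/Abca1+/- mice 7 of 10 (17.7% of 15083 higher, 16.4% lower). After thinning to the lowest total 3 members were called in E3/Abca1+/+ and 3 in E3/Abca1+/- mice. The share of all genes called after thinning is not given here, so this fall cannot be read as particular to the members. By edgeR 0 members were called lower in any genotype. Mmp3 did not pass the filter on low counts in the first 3 of these fits, nor Mmp12 in those of E3/Abca1+/+ and E4/Abca1+/+ mice. Without the filter 7, 8, 9 and 7 of 10 members were higher, in the same order of genotypes, beside 12.5%, 13.7%, 9.08% and 17.7% of 15171 genes.

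Averaged over the 4 genotypes in 1 fit of 58 mice, 9 of 10 members were higher after TBI, beside 29% of 15171 genes higher and 24.3% lower. The median log2 fold change was 0.78 over the 10 members and 0.01 over all genes. The log2 fold changes were 6.91 ± 0.85 (SE) for Mmp3, 4.06 ± 0.35 for Mmp12, 1.83 ± 0.15 for Mmp19, 0.92 ± 0.10 for Mmp2 and 0.64 ± 0.08 for Mmp14 among the proteases. Among the inhibitors they were 3.86 ± 0.28 (SE) for Timp1, 0.37 ± 0.03 for Timp2, 0.31 ± 0.06 for Timp3 and 0.15 ± 0.04 for Timp4. Without E4/Abca1+/- sham replicate 2 the values of Mmp3, Mmp12 and Timp1 were 7.74, 4.20 and 3.97, and all 3 remained called. The Mmp3 values and their SE depend on the prior count, because the E3/Abca1+/+ and E4/Abca1+/+ sham groups held 0 counts. Mmp15 was the member not called, with 0.08 ± 0.05 (SE, adjusted p = 0.166, edgeR). The Timp4 call was lost when every library was thinned to the smallest total, with 0.11 (adjusted p = 0.0568, edgeR).

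Every TBI mouse lay above every sham mouse for 6 of the 10 genes in E3/Abca1+/+ mice, as for 4.36% of all genes. This held for 5 members in E3/Abca1+/- mice (6.57% of all genes), 3 in E4/Abca1+/+ mice (3.76%) and 2 in E4/Abca1+/- mice (7.36%). The 6 genes of E3/Abca1+/+ mice include Mmp3, whose lowest TBI library held 1 count. Timp1 was separate in all 4 genotypes.

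**Figure D2:**
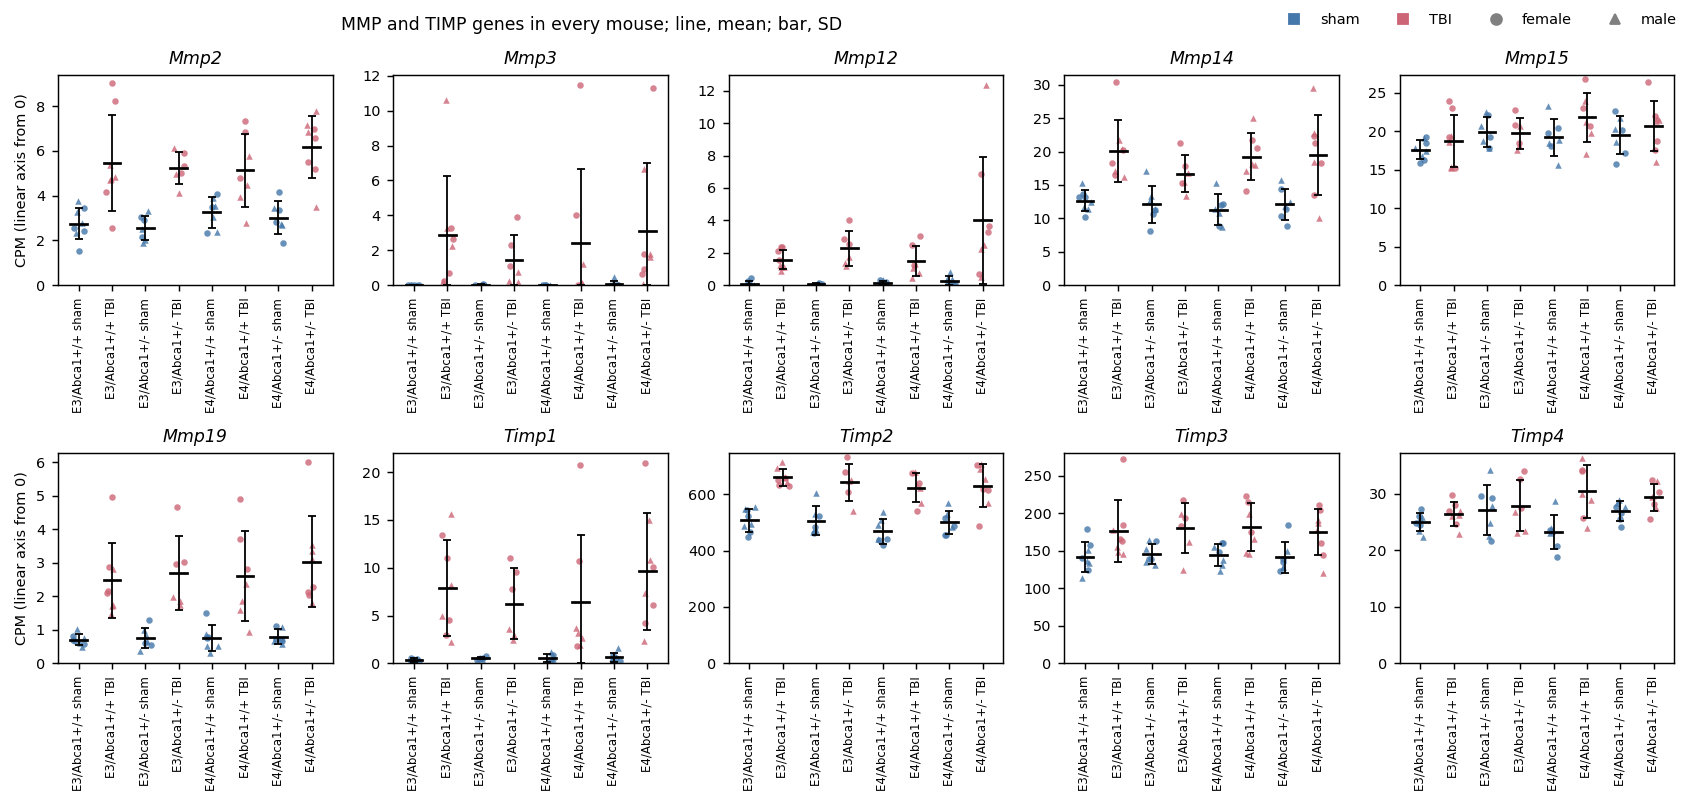
CPM of each gene in every mouse of the 8 groups, on linear axes from 0 (circles, females; triangles, males; line, mean; bar, SD, cut at 0). Mmp3 and Mmp12 lie near 0 in sham mice and spread up to 11.5 and 12.4 CPM in TBI mice, while Mmp15 overlaps between sham and TBI mice in every genotype.

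Mmp3 encodes stromelysin-1, which cuts proteoglycans, laminin and fibronectin and can activate other MMP precursors. It was nearly absent from sham tissue, where 26 of 29 libraries had 0 counts. None was found in the 8 E3/Abca1+/+ and 7 E4/Abca1+/+ sham libraries, 2 counts in all in the 7 E3/Abca1+/- sham libraries, and 12 counts in the E4/Abca1+/- group, all in replicate 2 (0.489 CPM). After TBI its lowest, median and highest levels were 0.211, 2.42 and 10.6 CPM in E3/Abca1+/+ mice (n = 8) and 0.201, 0.927 and 3.91 CPM in E3/Abca1+/- mice (n = 6). They were 0, 0.145 and 11.5 CPM in E4/Abca1+/+ mice (n = 7) and 0.0515, 1.69 and 11.3 CPM in E4/Abca1+/- mice (n = 8). Sham and TBI mice did not overlap in both E3 genotypes, whereas 5 of 7 E4/Abca1+/+ and 7 of 8 E4/Abca1+/- TBI mice lay above every sham mouse. Part of this rests on very few counts. The lowest E3/Abca1+/+ TBI library held 1 count, and 4 of the 7 E4/Abca1+/+ TBI libraries were at or under the floor of 3 counts.

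From summed counts, Mmp3 was at least 83.8-fold higher after TBI in E3/Abca1+/+ mice (0 and 258 counts) and at least 41.2-fold higher in E4/Abca1+/+ mice (0 and 123 counts), against a floor of 3 counts over the sham group. These bounds were 36.1-fold without E3/Abca1+/+ TBI replicate 4 and 22.6-fold without E4/Abca1+/+ TBI replicate 6. The ratio was 109-fold in E3/Abca1+/- mice (2 and 154 counts, exact 95% interval 29.6 to 906), and it was 61.5-fold without TBI replicate 5 (16.4 to 518), 178-fold without sham replicate 5 (31.5 to 7080) and 192-fold without sham replicate 7 (34.0 to 7640). In E4/Abca1+/- mice it was 31.3-fold (12 and 382 counts, 17.7 to 61.1), and at least 105-fold without sham replicate 2. These intervals cover counting error only. In E4/Abca1+/- mice the fitted log2 fold change was 5.14 (adjusted p = 0.00136, edgeR), and 8.90, still called, without sham replicate 2, a value that depends on the prior count because the other sham libraries were at 0. The adjusted p was 0.00179, 0.000186 and 0.0411 in E3/Abca1+/+, E3/Abca1+/- and E4/Abca1+/+ mice by edgeR without the filter.

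Mmp12 encodes macrophage elastase, which cuts elastin and other matrix proteins. In sham mice 13 of 29 libraries had 0 counts, and the groups held 7, 8, 9 and 44 counts in all in E3/Abca1+/+, E3/Abca1+/-, E4/Abca1+/+ and E4/Abca1+/- mice. After TBI the lowest, median and highest levels were 0.862, 1.39 and 2.33 CPM in E3/Abca1+/+ (n = 8) and 1.15, 2.14 and 4.03 CPM in E3/Abca1+/- mice (n = 6). They were 0.433, 1.24 and 3.02 CPM in E4/Abca1+/+ (n = 7) and 0.490, 2.88 and 12.4 CPM in E4/Abca1+/- mice (n = 8). Sham and TBI mice were separate except in E4/Abca1+/- mice, where sham replicate 2 had 0.815 CPM and 6 of 8 TBI mice lay above it. In E4/Abca1+/+ mice the lowest TBI library held 3 counts, the floor.

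Summed Mmp12 counts were 16.1-fold higher after TBI in E3/Abca1+/+ mice (116 counts, exact 95% interval 7.59 to 41.0) and 43.3-fold higher in E3/Abca1+/- mice (245 counts, 21.6 to 101). They were 10.2-fold higher in E4/Abca1+/+ mice (91 counts, 5.12 to 22.9) and 11.9-fold higher in E4/Abca1+/- mice (534 counts, 8.76 to 16.6). Single sham mice moved these ratios, to 47.3-fold without E3/Abca1+/+ replicate 6 (12.8 to 395), 70.9-fold without E3/Abca1+/- replicate 5 (27.3 to 262) and 18.3-fold without E4/Abca1+/- replicate 2 (12.2 to 28.8). The intervals of these ratios cover counting error only and leave out the spread between mice. By edgeR the adjusted p was 1.49e-06 for E3/Abca1+/- and 0.000588 for E4/Abca1+/- mice, and without the filter the values were 8.43e-06 for E3/Abca1+/+ and 0.00112 for E4/Abca1+/+ mice. In E4/Abca1+/- mice the fitted log2 fold change was 3.76, with a 95% interval from the spread between mice of 2.254 to 5.275. It was 4.34, still called, without sham replicate 2. Mmp12 shares 157 exon bases with Mmp1b on the opposite strand, where reads cannot be told apart without the strand setting.

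Both genes lie on chromosome 9, and the sequence before their starts was read beside that of Timp1 because these 3 genes had the largest log2 fold changes of the set. The letters TGAGTCA and their reverse complement TGACTCA, the motif bound by the Fos and Jun proteins of AP-1, were sought on both strands in the 250 bases before each RefSeq start (GRCm38.p6). Of 32851 such windows 1466 (4.46%) held the motif. The members with a window were 8, with 9 windows, and 2 windows held it, 1 of Mmp3 and 1 of the 2 of Mmp12. The last 100 bases are shown for Mmp3 (chr9:7445722-7445821), that start of Mmp12 (chr9:7347274-7347373) and Timp1 (chrX:20870066-20870165), all on the plus strand, with the motif in capitals.
Mmp3: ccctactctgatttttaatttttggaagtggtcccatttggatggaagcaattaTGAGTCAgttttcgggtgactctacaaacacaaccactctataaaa
Mmp12: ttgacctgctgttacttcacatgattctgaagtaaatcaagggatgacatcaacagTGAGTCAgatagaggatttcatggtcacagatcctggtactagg
Timp1: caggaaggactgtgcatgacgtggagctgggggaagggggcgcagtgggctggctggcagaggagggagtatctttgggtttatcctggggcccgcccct
The match began 46 bases before the start of Mmp3 and 44 bases before that start of Mmp12. A match describes the letters of the window, and binding was not measured.

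Mmp19 encodes a secreted protease that cuts basement membrane proteins. Its lowest, median and highest levels in sham mice were 0.487, 0.673 and 1.04 CPM in E3/Abca1+/+, 0.376, 0.682 and 1.28 in E3/Abca1+/-, 0.299, 0.744 and 1.50 in E4/Abca1+/+ and 0.590, 0.691 and 1.12 in E4/Abca1+/- mice. In TBI mice they were 1.48, 2.14 and 4.96 CPM in E3/Abca1+/+, 1.76, 2.47 and 4.65 in E3/Abca1+/-, 0.950, 2.37 and 4.90 in E4/Abca1+/+ and 1.80, 2.71 and 6.00 in E4/Abca1+/- mice. Sham and TBI mice were separate except in E4/Abca1+/+, where 6 of 7 TBI mice lay above every sham mouse. The log2 fold change was 1.75 ± 0.26 (SE, adjusted p = 3.89e-05, edgeR), 1.83 ± 0.28 (0.000183), 1.77 ± 0.36 (0.00319) and 1.91 ± 0.26 (2.67e-05) in the same order of genotypes. On the opposite strand Mmp19 shares 789 exon bases with Tmem198b and 212 with an antisense gene, and the strand setting of the counting is not given in the sources used here, so reads in those bases cannot be told apart.

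Mmp2 encodes gelatinase A, which cuts basement membrane and denatured collagen. Its lowest, median and highest levels in sham mice were 1.54, 2.66 and 3.74 CPM in E3/Abca1+/+, 1.89, 2.48 and 3.30 in E3/Abca1+/-, 2.34, 3.50 and 4.08 in E4/Abca1+/+ and 1.86, 2.83 and 4.15 in E4/Abca1+/- mice. In TBI mice they were 2.54, 4.79 and 9.04 CPM in E3/Abca1+/+, 4.11, 5.15 and 6.12 in E3/Abca1+/-, 2.78, 4.78 and 7.35 in E4/Abca1+/+ and 3.48, 6.69 and 7.79 in E4/Abca1+/- mice. The groups were separate in E3/Abca1+/- mice, and 7 of 8, 5 of 7 and 7 of 8 TBI mice lay above every sham mouse in E3/Abca1+/+, E4/Abca1+/+ and E4/Abca1+/- mice. Its log2 fold change was 0.96 ± 0.21 (SE, adjusted p = 0.0022, edgeR), 1.04 ± 0.15 (7.05e-05), 0.65 ± 0.21 (0.0433) and 1.01 ± 0.18 (0.000277) in E3/Abca1+/+, E3/Abca1+/-, E4/Abca1+/+ and E4/Abca1+/- mice. The E4/Abca1+/+ call was lost when any 1 of sham replicates 1, 2, 3, 4, 6 and 7 or TBI replicates 3, 5, 6 and 7 was left out, with log2 fold changes of 0.56 to 0.70 and edgeR adjusted p of 0.0505 to 0.105.

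Mmp14 encodes a membrane-anchored protease that activates the Mmp2 precursor at the cell surface with the help of Timp2. Its median level was 12.8, 11.4, 11.4 and 11.8 CPM in the sham groups and 19.3, 16.1, 18.2 and 19.8 CPM in the TBI groups of E3/Abca1+/+, E3/Abca1+/-, E4/Abca1+/+ and E4/Abca1+/- mice, and single mice ranged from 8.12 to 17.1 CPM in sham and from 10.1 to 30.4 CPM in TBI. The groups were separate in E3/Abca1+/+ mice, and 2 of 6, 6 of 7 and 6 of 8 TBI mice lay above every sham mouse in the other genotypes. The log2 fold change was 0.68 ± 0.12 (SE, adjusted p = 0.000254, edgeR), 0.45 ± 0.14 (0.0269), 0.75 ± 0.13 (0.00095) and 0.65 ± 0.18 (0.011). The E3/Abca1+/- call was lost without TBI replicate 4 (0.44, adjusted p = 0.0522, edgeR) and without TBI replicate 5 (0.37, adjusted p = 0.0726, edgeR).

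Mmp15 encodes another membrane-anchored protease and was not called in any genotype. Its median level was 17.7, 19.3, 18.9 and 20.1 CPM in sham and 18.9, 19.5, 21.2 and 21.4 CPM in TBI mice, in the same order of genotypes. Sham and TBI mice overlapped throughout, and 4 of 8, 1 of 6, 2 of 7 and 1 of 8 TBI mice lay above every sham mouse. On the log2 scale TBI differed from sham by 0.08 (95% interval -0.12 to 0.27), -0.0080 (-0.17 to 0.15), 0.17 (-0.04 to 0.38) and 0.05 (-0.16 to 0.26). Averaged over genotypes the interval was -0.02 to 0.18, against 0.48 to 0.80 for Mmp14.

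**Figure D3:**
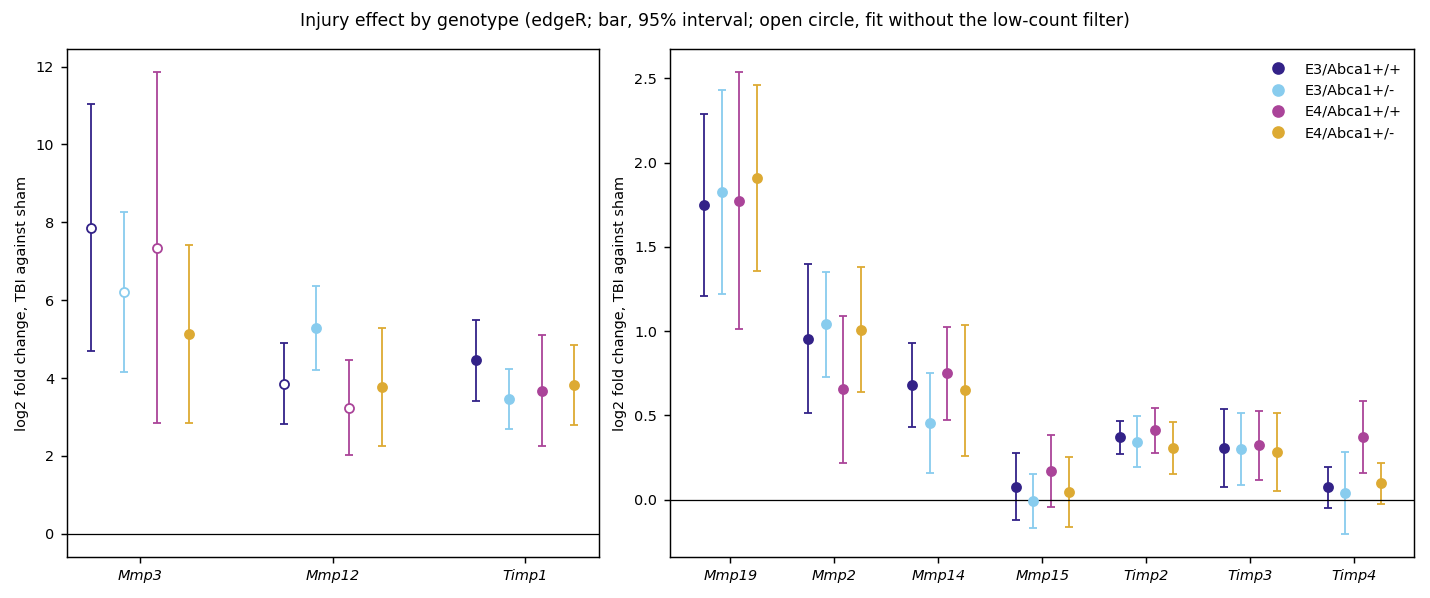
Log2 fold change of TBI against sham with its 95% interval in the 4 genotypes, for the 3 genes of largest change and, with another axis, the other 7 (open circles, fit without the filter on low counts). Mmp19 lies between 1.75 and 1.91 in the 4 genotypes, and the interval of Mmp15 includes 0 in each. The Mmp3 values and intervals of the Abca1+/+ genotypes depend on the prior count, because their sham groups held 0 counts.

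Timp1 had the largest change of the inhibitors. It is known as an inducible inhibitor of secreted MMPs that also signals to cells directly. Its lowest, median and highest levels in sham mice were 0, 0.453 and 0.573 CPM in E3/Abca1+/+, 0.390, 0.567 and 0.763 in E3/Abca1+/-, 0.0737, 0.431 and 1.20 in E4/Abca1+/+ and 0.219, 0.587 and 1.59 in E4/Abca1+/- mice. In TBI mice they were 2.21, 6.58 and 15.6 CPM in E3/Abca1+/+, 2.47, 5.70 and 11 in E3/Abca1+/-, 1.77, 3.17 and 20.7 in E4/Abca1+/+ and 2.29, 8.74 and 21 in E4/Abca1+/- mice. All TBI mice lay above all sham mice of their genotype, and the TBI mice of a group differed several-fold from each other. Its log2 fold change was 4.45 ± 0.50 (SE, adjusted p = 1.48e-06, edgeR), 3.46 ± 0.37 (4.01e-06), 3.68 ± 0.67 (0.00135) and 3.81 ± 0.49 (1.51e-05), and 4.23 in E4/Abca1+/- mice without sham replicate 2.

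Timp2 encodes the inhibitor that takes part in the activation of Mmp2. Its change was small beside that of Timp1. The median level was 508, 483, 442 and 487 CPM in the sham groups and 655, 648, 633 and 636 CPM in the TBI groups of E3/Abca1+/+, E3/Abca1+/-, E4/Abca1+/+ and E4/Abca1+/- mice, with SDs between 30.1 and 75.0 CPM. The groups were separate in both Abca1+/+ genotypes, and 5 of 6 and 6 of 8 TBI mice lay above every sham mouse in E3/Abca1+/- and E4/Abca1+/- mice. The log2 fold change was 0.37 ± 0.05 (SE, adjusted p = 8.41e-06, edgeR), 0.34 ± 0.07 (0.00187), 0.41 ± 0.06 (0.000401) and 0.31 ± 0.07 (0.00351).

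Timp3 encodes a matrix-bound inhibitor that also blocks ADAM and ADAMTS proteases. Its median level was 139, 140, 148 and 135 CPM in the sham groups and 165, 189, 176 and 183 CPM in the TBI groups, in the same order of genotypes, and sham and TBI mice overlapped in each. Its log2 fold change was 0.30 ± 0.11 (SE, adjusted p = 0.0536, edgeR), 0.30 ± 0.10 (0.0399), 0.32 ± 0.10 (0.036) and 0.28 ± 0.11 (0.0578). These values lay close together on either side of the threshold, and the method and single mice decided the calls. The DESeq2 Wald test called all 4 (adjusted p 0.0405, 0.0214, 0.0152 and 0.0371), while edgeR in the single fit over 58 mice called E3/Abca1+/+ and E4/Abca1+/- but not the other genotypes (adjusted p 0.0316, 0.0737, 0.0553 and 0.0307). The E3/Abca1+/- call was lost without any 1 of sham replicates 1, 3, 5, 6 and 7 or TBI replicates 3, 4, 5 and 6 (0.24 to 0.31, edgeR adjusted p 0.0559 to 0.0991). The E4/Abca1+/+ call was lost without any 1 of sham replicates 1, 3 and 4 or TBI replicates 3, 6 and 7 (0.27 to 0.31, edgeR adjusted p 0.0651 to 0.0799). A call appeared in E3/Abca1+/+ mice without sham replicate 5 or TBI replicate 1, 3 or 4 (0.33 to 0.35, edgeR adjusted p 0.0268 to 0.0482) and in E4/Abca1+/- mice without sham replicate 3 or TBI replicate 6 or 7 (0.30 to 0.36, edgeR adjusted p 0.00809 to 0.0457). Averaged over genotypes, Timp3 was called with an adjusted p of 1e-05 (edgeR).

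Timp4 encodes an inhibitor expressed in heart and brain. It ranged from 18.9 to 34.2 CPM in sham and from 22.8 to 36.4 CPM in TBI mice, with overlap in every genotype. The log2 fold change was 0.07 ± 0.06 (SE, adjusted p = 0.401, edgeR), 0.04 ± 0.11 (0.846), 0.37 ± 0.10 (0.0201) and 0.10 ± 0.06 (0.224) in E3/Abca1+/+, E3/Abca1+/-, E4/Abca1+/+ and E4/Abca1+/- mice. The E4/Abca1+/+ call stayed in all 14 fits that left out 1 mouse, with 0.33 to 0.44. Whether it differed from the other genotypes was tested as an interaction, and it was not called: 0.29 ± 0.11 (SE, adjusted p = 1, edgeR) for isoform by injury in Abca1+/+ mice and -0.26 ± 0.12 (SE, adjusted p = 0.95, edgeR) for Abca1 by injury in E4 mice.

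Timp1, Timp3 and Timp4 each lie wholly inside a synapsin gene on the opposite strand, namely Syn1, Syn3 and Syn2. Exons of Timp3 and Syn3 share 1733 bases, those of Timp4 and Syn2 share 90, and those of Timp1 and Syn1 share 0. With the strand setting not given, reads of both genes in the shared bases cannot be told apart.

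The study asked how APOE isoform and the loss of 1 copy of Abca1 bear on the response to TBI, and the 10 genes were compared between genotypes in that light. Between Abca1+/- and Abca1+/+ mice, edgeR called 0 of 6 members tested in E3 sham (2.51% of all genes), 0 of 10 in E3 TBI (0.180%), 0 of 7 in E4 sham (0.990%) and 0 of 10 in E4 TBI mice (1.47%), with 1 member at an unadjusted p under 0.05 in each and 0 called by DESeq2. Between APOE4 and APOE3 mice, edgeR called 0 of 6 members in Abca1+/+ sham (0.346%), 0 of 9 in Abca1+/+ TBI (0.207%), 0 of 8 in Abca1+/- sham (5.27%) and 0 of 10 in Abca1+/- TBI mice (2.87%), with 0, 1, 0 and 0 members at an unadjusted p under 0.05 and 0 called by DESeq2. Averaged over groups, edgeR called 0 of 10 members for the Abca1 effect (17.9% of all genes) and 0 of 10 for the isoform effect (15%), with 1 member at an unadjusted p under 0.05 for each and 0 called by DESeq2.

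Among members that passed the filter on low counts, Mmp12 in injured E4 mice had the largest of the differences between Abca1 genotypes. Its median level was 2.88 CPM in E4/Abca1+/- and 1.24 CPM in E4/Abca1+/+ TBI mice, with overlapping ranges, and the highest mouse was E4/Abca1+/- replicate 1 at 12.4 CPM. The log2 difference was 1.45 ± 0.59 (SE, 95% interval 0.22 to 2.69, adjusted p = 0.195, edgeR). In a single fit over all 58 mice it was 1.48, with an adjusted p of 0.0369 (edgeR).

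The averaged Abca1 effect had 95% intervals of -0.19 to 0.19 for Mmp2, -0.22 to 0.10 for Mmp14, -0.05 to 0.08 for Timp2 and -0.12 to 0.11 for Timp3. The averaged difference of APOE4 from APOE3 had intervals of -0.05 to 0.35 for Mmp2, -0.16 to 0.17 for Mmp14, -0.13 to 0.0066 for Timp2 and -0.12 to 0.11 for Timp3. For Timp1 they were -0.28 to 0.99 for Abca1 and -0.43 to 0.86 for isoform. The members at an unadjusted p under 0.05 had wholly positive intervals but were not called. For Abca1 this was Timp4, with 0.00056 to 0.18 (adjusted p = 0.163, edgeR). For isoform it was Mmp12, with 0.02 to 1.75 (adjusted p = 0.166, edgeR).

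Whether injury acted differently between genotypes was tested as an interaction, and edgeR called 0 of 10 members for Abca1 by injury within either isoform and for isoform by injury within either Abca1 genotype, beside 0% of all genes in each. At an unadjusted p under 0.05 Timp4 alone appeared, for Abca1 by injury in E4 mice and for isoform by injury in Abca1+/+ mice, and DESeq2 called 0. For Mmp19 the 95% interval of the Abca1 by injury interaction was -0.77 to 0.88 in E3 and -0.83 to 1.09 in E4 mice. For Timp2 it was -0.21 to 0.14 and -0.29 to 0.12.

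Between the sexes, Mmp19 and Timp3 were higher in females. Over all groups 2 of 10 members were called, beside 10.1% of 15171 genes. Among TBI mice the lowest, median and highest Mmp19 levels were 2.04, 2.91 and 6.00 CPM in 14 females and 0.950, 1.88 and 3.54 CPM in 15 males, and among sham mice the medians were 0.702 and 0.664 CPM. For Timp3 they were 145, 189 and 273 CPM in female and 121, 162 and 200 CPM in male TBI mice, with sham medians of 145 and 136 CPM. The ranges of the sexes overlapped for both genes. The log2 difference of females from males was 0.46 ± 0.14 for Mmp19 (SE, adjusted p = 0.0241, edgeR) and 0.19 ± 0.05 for Timp3 (SE, adjusted p = 0.0208, edgeR).

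Markers of the choroid plexus, which lies beside the hippocampus, were also unevenly spread over the sexes. Their summed level was over 100 CPM in 6 of 14 female sham, 6 of 14 female TBI, 2 of 15 male sham and 2 of 15 male TBI mice, with medians of 28.0, 38.7, 14.7 and 16.4 CPM. With the choroid plexus score as a covariate, the sex differences were 0.34 for Mmp19 (adjusted p = 0.23, edgeR) and 0.15 for Timp3 (adjusted p = 0.194, edgeR), and neither was called.

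Timp1 had a median of 9.85 CPM in female and 3.61 CPM in male TBI mice, and 0.429 and 0.487 CPM in sham mice. Its averaged sex difference was 0.57 ± 0.25 (SE, adjusted p = 0.129, edgeR) and its injury by sex interaction 1.15 ± 0.58 (SE, adjusted p = 0.674, edgeR). The interaction was above 0 for all 10 members, with a median of 0.26 beside 0.0046 over all genes, but edgeR called 0 of 10 (0% of all genes), with 1 member, Timp4, at an unadjusted p under 0.05 and 0 called by DESeq2. The members were measured in the same mice and many run together, so their shared sign is a description and not 10 separate observations.

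Mice of a group differed widely in several members, and many of these differences ran together. After subtraction of the group means from log2(CPM + 1), Mmp3 and Timp1 had a Pearson r of 0.894 over the 58 mice, the highest of any pair of members. Timp1 and Mmp19 had 0.686, Mmp19 and Timp3 0.682, and Mmp3 and Mmp19 0.668. Timp2 followed the others least, with -0.0515 for Timp3, 0.0035 for Mmp12 and 0.0522 for Mmp19, and its highest r was 0.422 with Mmp14. These values are a description, since the points share libraries, depth and groups, and sham mice carry few counts of Mmp3 and Mmp12.

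**Figure D4:**
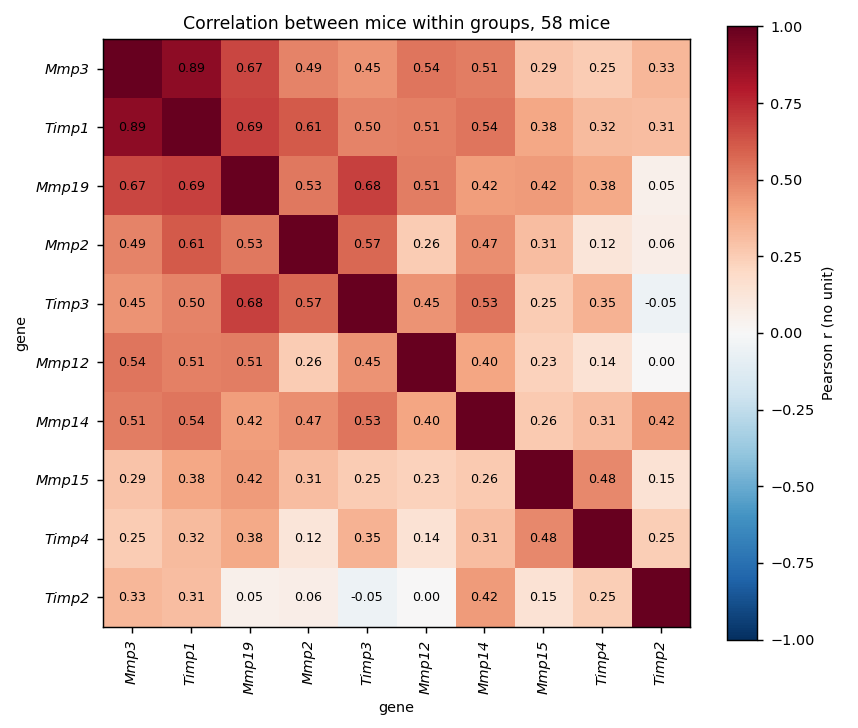
Pearson r between the 10 genes over 58 mice after subtraction of group means from log2(CPM + 1), shown as colour. Mmp3 and Timp1 reach 0.894, and Timp2 runs from -0.0515 with Timp3 to 0.422 with Mmp14.

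Of 14380 genes with a mean of at least 1 CPM, those with the pattern most like Mmp3 were Timp1 (r = 0.894), Chil1 (0.891) and Ptx3 (0.854). Those most like Timp1 were Chil1 (0.910), Ptx3 (0.898) and Mmp3 (0.894). With a pseudocount of 0.1 Timp1 was no longer among the 3 genes most like Mmp3, nor Mmp3 among those most like Timp1, which it also was not in injured mice alone. Chil1 encodes a secreted chitinase-like protein and Ptx3 a secreted pattern recognition protein. Mmp12 was most like Stab1 (0.745), a scavenger receptor of macrophages, Mfsd1 (0.717) and Gpam (0.715). Mmp19 was most like Cpt1a (0.846), which brings fatty acids into mitochondria, Cnn3 (0.838) and Anxa2 (0.818). With a pseudocount of 0.1 Ptx3 left the 3 genes most like Mmp3 and Timp1, and Gpam left those of Mmp12. In injured mice alone Ptx3 left those of Mmp3 and Chil1 those of Timp1. Mfsd1 and Gpam then left those of Mmp12, and Cnn3 left those of Mmp19.

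Among the genes most like Mmp2 were Wls (0.717) and Stom (0.705). Mmp14 was most like Cnn2 (0.747), Adamtsl3 (0.733) and Prrx1 (0.731). Mmp15 was most like Igsf1 (0.709), Otx2 (0.704), which is a choroid plexus marker here, and Zfp423 (0.702). Among those most like Timp3 were Ahnak (0.853) and Aebp1 (0.842). Timp2 was most like Wdr6 (0.776), Blcap (0.729) and Cdk18 (0.728), and Timp4 most like Eps8 (0.653), Serpine2 (0.634) and Sparc (0.633). In injured mice alone Wls, Stom, Adamtsl3, Prrx1, Aebp1, Cdk18, Eps8 and Sparc did not stay among the genes most like their member. Neither did Igsf1, Otx2 or Zfp423 for Mmp15. Stom was also lost with a pseudocount of 0.1.

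Other genes of extracellular proteolysis were taken from lists and compared in the fit averaged over genotypes. Of 15 other MMPs 7 were in the table, and 4 were higher after TBI, 2 lower and 1 not called, with a median log2 fold change of 0.26. Over all genes of this fit 29% were higher and 24.3% lower, with a median of 0.01, and the counts of each list stand beside these shares. Mmp11 was higher by 0.74 ± 0.13 (SE, adjusted p = 1.9e-06, edgeR), from 0.878 ± 0.260 to 1.47 ± 0.506 CPM (SD, n = 29 each). Mmp23, Mmp9 and Mmp28 were higher by 0.45 ± 0.15, 0.28 ± 0.12 and 0.26 ± 0.09 (SE), with edgeR adjusted p of 0.00935, 0.0468 and 0.0161. Mmp17, a membrane-anchored MMP, was lower, from 254 ± 28.3 to 208 ± 35.6 CPM (SD, n = 29 each), with a log2 fold change of -0.28 ± 0.06 (SE, adjusted p = 1.67e-05, edgeR). Mmp24 was lower too, with -0.11 ± 0.03 (SE, adjusted p = 0.000348, edgeR), and Mmp16 had -0.09 ± 0.05 (SE, adjusted p = 0.0919, edgeR).

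Of 8 partners of MMPs 7 were higher and 0 lower, with a median log2 fold change of 0.38, from -0.02 for Lrp1, a receptor that takes up MMPs, to 7.19 ± 0.45 (SE) for Lcn2, whose product binds the Mmp9 protein. Of 16 ADAM and ADAMTS proteases 10 were higher and 1 lower, with a median of 0.19, from -0.23 for Adam19 to 0.95 for Adam8. In the plasminogen system, whose enzyme plasmin can activate MMP precursors, 6 of the 7 genes in the table were higher and 1 lower, with a median of 0.93, from -0.22 for Serpini1, a neuronal serpin, to 2.87 for Serpinf2, the plasmin inhibitor. All 8 cathepsins and cystatins on the list were higher, with a median of 1.23, from 0.37 for Ctsk to 5.12 for Cst7, which encodes an inhibitor of cathepsins.

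**Figure D5:**
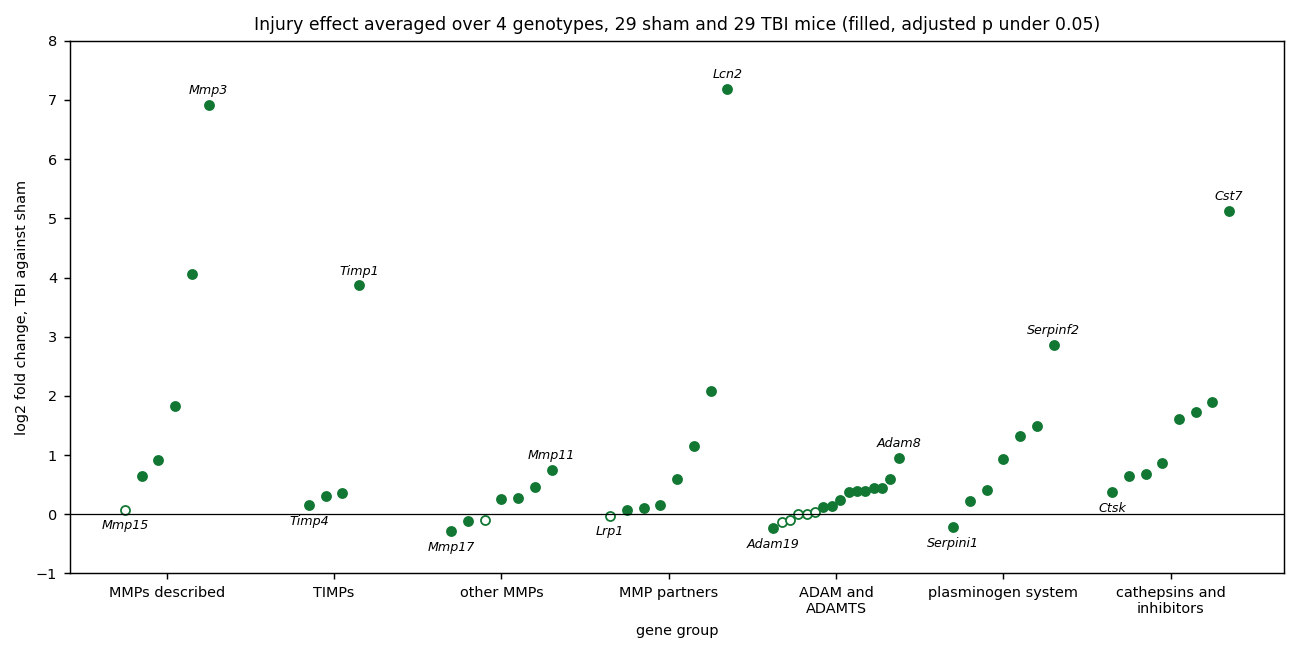
Log2 fold change of TBI against sham averaged over 4 genotypes for the MMPs and TIMPs described and 5 lists of other proteolysis genes, with 1 point per gene (filled, adjusted p under 0.05). Lcn2 at 7.19, Mmp3 at 6.91 and Cst7 at 5.12 are the highest points and Mmp17 at -0.28 is the lowest.

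Markers of several cell types were also compared in this fit, in which 29% of all genes were higher and 24.3% lower. Higher after TBI were 6 of 6 microglial markers, 5 of 6 of macrophages and monocytes, 6 of 6 of astrocytes, 5 of 6 of fibroblasts and meninges, 4 of 6 of endothelium, 3 of 6 of oligodendrocytes and 1 of 6 of pericytes and smooth muscle. All 6 neuronal markers were lower, and by edgeR 0 of 6 choroid plexus markers were called. The macrophage and monocyte sum ran from 5.68 to 71.5 CPM in sham and from 31.4 to 512 CPM in TBI mice, with Lyve1 as the marker not called. The microglial sum ran from 316 to 474 CPM in sham and from 562 to 1103 CPM in TBI mice, and the fibroblast and meningeal sum from 141 to 238 and from 104 to 411 CPM. Of 6 neutrophil markers 2 were in the table, S100a8 and S100a9, with a sum of at most 1.07 CPM in sham and 17.9 CPM in TBI mice. The neuronal sum, from 7505 to 8554 CPM in sham and from 5336 to 7604 CPM in TBI mice, checks the label of brain tissue. It does not tell hippocampus from cortex. Of 6 hippocampal markers 1 was higher and 2 were lower after TBI, from -0.86 for Dsp to 0.27 for Wfs1. Their sum ran from 408 to 556 CPM in sham and from 302 to 612 CPM in TBI mice.

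Within groups, the r with the macrophage and monocyte sum over the 58 mice was 0.798 for Timp1, 0.731 for Mmp19, 0.720 for Mmp3 and 0.640 for Mmp12, against 0.121 for Timp2. In TBI mice most of that sum was Gpnmb, which averaged 136 CPM, with Mrc1 next at 7.40 CPM. With the microglial sum Timp1, Mmp19, Mmp3 and Mmp12 had 0.672, 0.637, 0.619 and 0.52, and Timp2 had -0.0452. With the astrocyte sum Timp1, Mmp19, Mmp3 and Mmp12 had 0.64, 0.614, 0.594 and 0.597, and Timp2 had 0.148. The largest parts of the astrocyte sum in TBI mice were Slc1a2 and Gfap, which averaged 4197 and 1629 CPM. With the neutrophil sum Mmp3 had 0.742 and Timp1 0.767. Mmp14 had 0.648 with the fibroblast and meningeal sum. Its largest parts in TBI mice were Dcn, at 87.8 CPM, and Pdgfra, the marker not called, at 72.2 CPM. Timp3 had 0.631 with the fibroblast and meningeal sum, 0.631 with the astrocyte sum and 0.628 with the macrophage and monocyte sum. Mmp15 had 0.546 with the choroid plexus sum. With the neuronal sum, Mmp19 had -0.792 and Timp3 -0.758. The part of these cell types in the changes of the members was not tested.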

How the data were processed

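The authors deposited raw read counts per gene, not normalized, from Illumina HiSeq libraries. The submitters' processing notes name Subread 1.5.0, featureCounts, edgeR and mm10. The annotation and strand setting are not given in the sources used here. Before use 2 blank lines were dropped, 23 symbols stored as spreadsheet date numbers were replaced by the RefSeq symbol of their Entrez identifier, and 14999 identifiers matched RefSeq.

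Genes that passed filterByExpr over the groups of a fit were compared with quasi-likelihood tests of edgeR 4.0.16 (R 4.3.3) after TMM scaling, with Benjamini-Hochberg adjustment over all genes tested. P-values measure the spread between mice. Alternatives were the size factors and the Wald test of DESeq2 1.42.0, all genes unfiltered, only genes at 1 CPM or more in at least 6 mice, 1 joint fit of the 58 mice, a term for sex, and libraries thinned to 4421308 counts. Leaving out single mice and the choroid plexus covariate were chosen after seeing the data. The scripts were tested on simulated data. All members were named, the 3 genes most like each, other MMPs, and the genes of largest and smallest change of each list. Of the genes most alike, 2 are not reported here. The members and lists were chosen with earlier results of these data known.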

Additional observations from a re-analysis of the deposited data

Results flagged for a closer look

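Among 78 sets of 1 gene in 1 group, 8 had a highest mouse whose gap to the next, relative to the range of the group, was above Dixon's 95% critical value. For normally spread and independent values chance flags about 1 in 20 sets. These sets are CPM values, some near 0, of genes that run together in the same mice. The number flagged therefore cannot be read against that rate. For Mmp3 these were E3/Abca1+/+ TBI replicate 4 (10.6 CPM, next 3.28), E4/Abca1+/+ TBI replicate 6 (11.5 CPM, next 4) and E4/Abca1+/- sham replicate 2 (0.489 CPM, next 0). E3/Abca1+/+ TBI replicate 8 stood apart for Mmp14 (30.4 CPM, next 21.7), Mmp19 (4.96 CPM, next 2.86) and Timp3 (273 CPM, next 184). E4/Abca1+/- TBI replicate 3 did so for Mmp19 (6.00 CPM, next 3.54), and E4/Abca1+/- sham replicate 3 for Timp3 (185 CPM, next 150).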

How the results depend on the processing

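The number of members called stayed within 1.5 times of the reported one in 231 recomputed counts and moved further in 6. In E3/Abca1+/+ mice 8 members were called in the single fit over 58 mice and 3 after thinning, against 5. In E3/Abca1+/- mice thinning left 3 against 7. Between Abca1 genotypes in E4 TBI mice the single fit called 1 against 0. Of the 2 members called for sex, thinning left 1 and the choroid plexus covariate 0. The cause was not tested, and the shares of all genes called in these recomputed fits are not given here. Of the log2 fold changes, 441 kept their direction and side of the threshold, 34 lost a call, 13 gained one and 14 changed sign, none of these called. Mmp15 in E3/Abca1+/- mice went from -0.0080 to 0.0335 after thinning and 0.0102 with the choroid plexus covariate, Timp4 there from 0.04 to -0.0513 after thinning, and the sex difference of Mmp15 from 0.06 to -0.0197 with that covariate. With single mice left out, Mmp15 ran from -0.0517 to 0.0264 in E3/Abca1+/- mice (0.0012 without sham replicate 1) and from -0.0105 to 0.0957 in E4/Abca1+/- mice (0.0656 without sham replicate 2), and Timp4 from -0.0215 to 0.111 in E3/Abca1+/- mice (-0.0018 without sham replicate 6). The members called were then 5 to 7 in E3/Abca1+/+, E3/Abca1+/- and E4/Abca1+/+ mice and 6 to 8 in E4/Abca1+/- mice. Of the 30 genes most like a member, 3 for each, 24 stayed with a pseudocount of 0.1 and 13 in injured mice alone. No paired analysis was possible because sham and TBI mice were different animals. Replicate numbers were assigned here within each group. Depth limits Mmp3 and Mmp12 in sham mice.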
